A study of Homo sapiens with 10 samples.

Results

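The chemokine cluster of human chromosome 4 holds 6 genes of the CXCL family with the same receptor, CXCL8, CXCL6, CXCL1, CXCL5, CXCL3 and CXCL2. Binding in the cluster was read from every deposited peak whose summit lay in chr4:74550000-75000000 (hg19), a window of 450 kb chosen by position and not by any measured value. It took in 396 of the 879550 peaks on chromosomes 1 to 22 and X, counted over 10 peak lists. The window was placed by the positions of 3 of the genes, CXCL8 near 74606223, CXCL1 near 74735109 and CXCL2 near 74964997. The other members, CXCL6, CXCL5 and CXCL3, could be put in order between them but not at a base position of this build, so no peak is assigned to them here.

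ChIP-seq, which sequences the DNA that precipitates with a protein, had been performed for FOS, JUN, JUNB, NFKB1 and STAT3 in MCF10A-ER-Src cells. These are human breast epithelial cells of 1 line, derived from MCF-10A and carrying the Src oncoprotein fused to the estrogen receptor ligand-binding domain, so that tamoxifen switches Src on. Every group carries this transgene. Non-transformed cells received ethanol (36 h in the library names), and transformed cells received 1 μM 4-hydroxytamoxifen for 12 h, so the control cells and the treated cells also differ in the time that the library names give. Each protein has 1 library in each state, and no value below has a replicate, so no difference between states was tested.

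The 6 members encode chemokines with a Glu-Leu-Arg motif ahead of the CXC cysteines, the kind that draws neutrophils through the receptor CXCR2, with CXCL8 and CXCL6 also acting on CXCR1. CXCL8 is interleukin-8, CXCL1, CXCL2 and CXCL3 are the growth-regulated oncogene (GRO) chemokines, CXCL5 is the epithelial neutrophil-activating peptide, and CXCL6 is granulocyte chemotactic protein. NF-κB dimers, in which NFKB1 supplies the p50 subunit, bind κB sequences and are the classical inducers of these genes in epithelial cells. AP-1 is a dimer of FOS and JUN family proteins that binds TGANTCA, and STAT3 is a transcription factor that cytokine receptors and Src activate by tyrosine phosphorylation.

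The promoters are shown because the κB letters are common to all members. No NFKB1 peak was tied to these letters. Each run is the 150 bases ahead of the RefSeq start (GRCh38.p14), read 5′ to 3′ on the gene's own strand, at chr4:73740419-73740568 for CXCL8 (plus strand), chr4:73836528-73836677 for CXCL6 (plus strand), chr4:73869243-73869392 for CXCL1 (plus strand), chr4:73998678-73998827 for CXCL5 (minus strand), chr4:74038690-74038839 for CXCL3 (minus strand), chr4:74099196-74099345 for CXCL2 (minus strand). These coordinates belong to GRCh38 and were not set against the hg19 peaks. Capitals mark the κB sequence GGAATTTCC and the AP-1 sequence TGANTCA.
CXCL8: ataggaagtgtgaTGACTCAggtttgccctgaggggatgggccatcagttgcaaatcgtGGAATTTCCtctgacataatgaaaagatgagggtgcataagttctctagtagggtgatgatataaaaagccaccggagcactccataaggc
CXCL6: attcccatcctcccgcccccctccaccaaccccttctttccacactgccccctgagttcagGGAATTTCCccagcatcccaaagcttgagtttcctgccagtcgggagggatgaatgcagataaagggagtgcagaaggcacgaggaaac
CXCL1: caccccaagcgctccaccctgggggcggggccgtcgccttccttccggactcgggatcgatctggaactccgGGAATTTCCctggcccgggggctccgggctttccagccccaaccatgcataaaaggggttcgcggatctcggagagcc
CXCL5: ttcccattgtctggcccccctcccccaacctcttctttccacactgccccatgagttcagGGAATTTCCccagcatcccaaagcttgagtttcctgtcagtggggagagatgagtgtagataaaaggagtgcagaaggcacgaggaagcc
CXCL3: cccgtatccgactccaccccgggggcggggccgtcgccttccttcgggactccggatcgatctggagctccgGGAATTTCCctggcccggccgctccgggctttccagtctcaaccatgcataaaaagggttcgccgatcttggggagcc
CXCL2: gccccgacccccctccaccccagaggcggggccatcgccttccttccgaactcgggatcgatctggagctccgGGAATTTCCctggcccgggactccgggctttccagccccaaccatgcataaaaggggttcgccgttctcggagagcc

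GGAATTTCC, searched on both strands in the 250 bases before to 50 bases after each start, stood in 6 of 6 members and in 162 of all 35116 promoters of the same length (0.461%). Its first base lay 77 to 91 bases ahead of the start, at 91 in CXCL8, 89 in CXCL6, 78 in CXCL1, 90 in CXCL5, 78 in CXCL3 and 77 in CXCL2. TGANTCA stood in CXCL8 alone, against 7.71% of all promoters. The looser general κB consensus was in 6 of 6 members and in 58.7% of promoters. TTCNNNGAA, a STAT sequence, was in CXCL6 and CXCL5, where it overlapped the κB letters, and in 7.66% of promoters. TTNNGCAA, a C/EBP sequence, was in CXCL2 and in 10.5% of promoters. A pair of non-member neighbours matched the table, PF4V1 and PPBP, and neither held GGAATTTCC. These are matches of letters and not sites of binding.

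Parts of these promoters are copies of one another, which limits what short reads can resolve. The longest run shared by CXCL6 and CXCL5 was 45 bases, and CXCL1 and CXCL2 shared 42, CXCL2 and CXCL3 37 and CXCL1 and CXCL3 25. CXCL8 shared no more than 9 bases with any other member. The lists were made from uniquely aligned reads of 36 bases, and a read lying inside a longer shared run has no unique place. The part of this in the values at CXCL1 and CXCL2 was not tested.

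All 5 proteins had more summits in the window than its length would give at the density of their own list, and NFKB1 stood furthest above it. NFKB1 had 15 summits in non-transformed cells, 33.3 per Mb against 4.91 per Mb over the effective genome, a ratio of 6.79. In transformed cells it had 52, or 116 per Mb against 27.3, a ratio of 4.23. The same ratio was 3.08 and 3.29 for STAT3 (22 and 44 summits in non-transformed and transformed cells). For the AP-1 proteins it lay between 2.14 and 2.59, with 44 and 61 summits of FOS, 29 and 55 of JUN, and 31 and 43 of JUNB. Every list thus had more summits in transformed cells, by 3.47 times for NFKB1, 2.0 for STAT3, 1.90 for JUN and 1.39 for both FOS and JUNB. Every whole list also grew, and filtered reads grew for all proteins but STAT3, though not in step with the counts. FOS and JUNB had the same count ratio with 1.19 and 1.72 times the reads. The whole NFKB1 list grew 5.57-fold between states while its filtered reads grew 2.0-fold, and the whole STAT3 list grew 1.87-fold with 0.821 times the reads. The filtered reads of the 10 libraries ranged from 4837474 (NFKB1, non-transformed) to 22082403 (FOS, transformed), and 13.0 to 49.9% of reads had been removed as duplicates. The part of depth in the window counts was not tested.

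**Figure D1:**
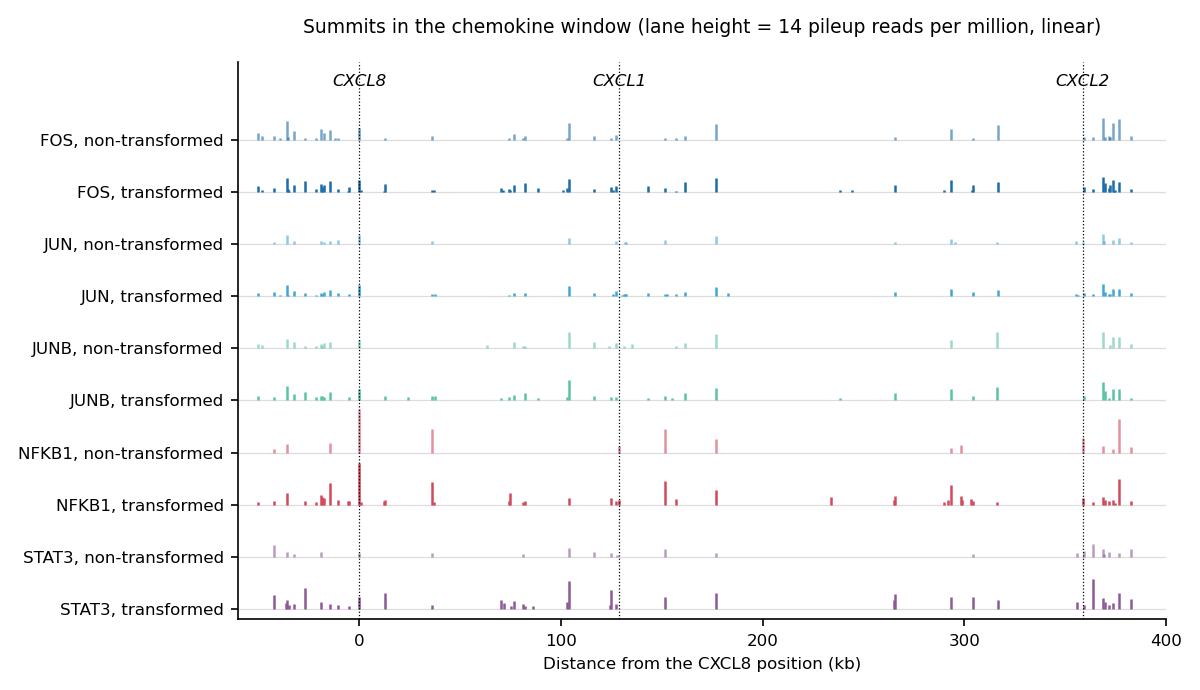
Highest summit of each list at each site along the 450 kb window (x axis, distance in kb from the CXCL8 position; 1 lane per protein and state, bar height in pileup in RPM, reads per 1000000 filtered reads, full lane height 14). The gene positions are marked, and the tallest bars are the NFKB1 summits of 11.8 and 11.3 at CXCL8.

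To compare libraries, the pileup of a peak (the number of extended reads over its summit) was divided by the library's filtered reads and is given as reads per 1000000 filtered reads (RPM). Summits from any list whose windows of 150 bp on each side overlapped were merged into sites, which gave 85 sites in the window and 248897 on all the chromosomes. A protein is counted at a site when it has a summit there. Sites are given by their first and last summit, and "before" and "after" a gene position mean toward lower and higher coordinates. CXCL8, CXCL6 and CXCL1 are read toward higher coordinates, and CXCL5, CXCL3 and CXCL2 toward lower ones.

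Sites that combined the proteins were a larger share of the cluster than of the genome. All 5 proteins had a summit in transformed cells at 24 of 85 sites (28.2%, background 14.8% of all sites), and in non-transformed cells at 6 (7.06%, background 2.41%). The same 6 sites held all 5 proteins in both states (7.06%, background 2.23%). Sites of 1 protein in 1 state were 18 of 85 (21.2%, background 38.7%). No protein was found in non-transformed cells at 31 sites (36.5%, background 34.6%), and none in transformed cells at 4 (4.71%, background 15.0%). NFKB1 was at 49 sites in transformed cells (57.6%, background 28.6%) and at 15 in non-transformed cells (17.6%, background 5.23%). STAT3 was at 41 sites (48.2%, background 31.0%) and 22 sites (25.9%, background 16.8%), and at least 1 AP-1 protein was at 71 sites in transformed cells (83.5%, background 77.7%). At the 24 sites with all 5 proteins, the outermost summits in transformed cells lay a median of 60.0 bp apart, with a range of 14 to 450 bp.

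**Figure D2:**
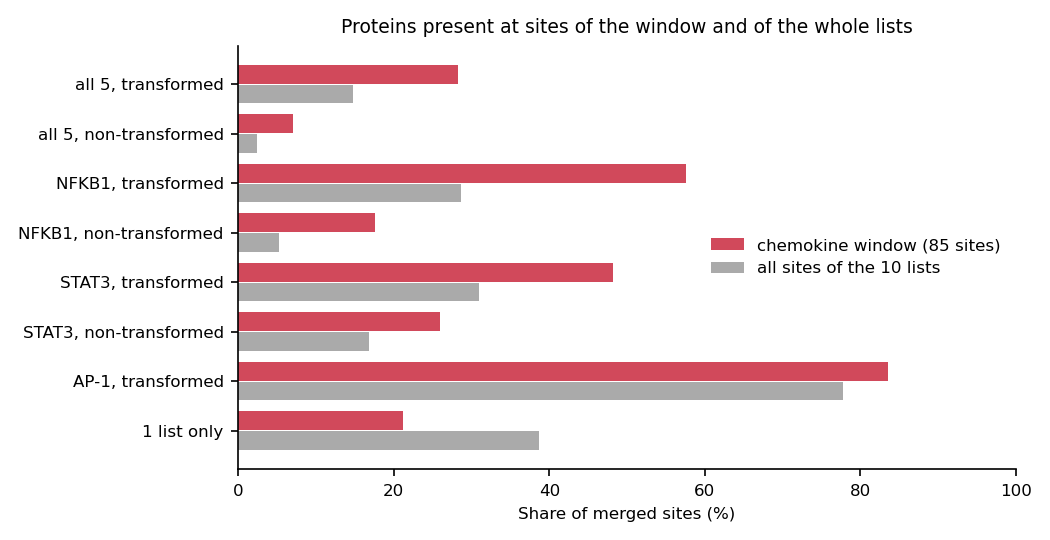
Share of sites (x axis, percent) with each combination of proteins, in the chemokine window (85 sites) and over all sites (248897). Sites with all 5 proteins in transformed cells are 28.2% in the window and 14.8% over all sites, and sites of 1 protein in 1 state are 21.2% and 38.7%.

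Among the proteins themselves the overlaps were close to those elsewhere. Of the 41 STAT3 sites of transformed cells, 36 had an AP-1 protein (87.8%, background 88.1%). AP-1 was at 42 of the 49 NFKB1 sites (85.7%, background 86.2%) and STAT3 at 31 of them (63.3%, background 62.9%). Of the 15 sites with NFKB1 in both states, 2 had no other protein in either state (13.3%, background 4.00%), which is 2.35% of all sites of the window (background 0.188%). They lay at the CXCL1 position and at chr4:74904446-74904480. The second was named after its values were seen. There NFKB1 had 2.07 RPM in non-transformed and 2.27 in transformed cells, a ratio of 1.10 (95% interval 0.50 to 2.60). This interval, like all those on ratios of single sites, is an exact binomial interval that covers counting error only.

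The sites were spread unevenly between the genes. The 56.2 kb before CXCL8 held 20 sites, 7 of them with all 5 proteins in transformed cells. In the 129 kb from CXCL8 to CXCL1, which also holds CXCL6 and PF4V1, there were 25 sites, 4 with all 5. The 230 kb from CXCL1 to CXCL2, with PF4, PPBP, CXCL5 and CXCL3, held 29 sites, 6 with all 5. After CXCL2 the window ran for 35.0 kb with 11 sites, 7 with all 5. No list had a summit in the 51.0 kb between 74789237 and 74840224, nor in the 38.8 kb between 74922720 and 74961506.

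CXCL8 carried the strongest site of the cluster at its gene position. The site at chr4:74606159-74606297 had the largest sum over the 10 lists, 44.7 RPM, and held summits of all 5 proteins in both states. NFKB1 led it with 11.8 RPM in non-transformed and 11.3 in transformed cells (57 and 109 reads), a ratio of 0.956 (0.688 to 1.34). By pileup this peak ranked 113 among 13252 NFKB1 peaks before and 11 among 73822 peaks after transformation. Its fold enrichment over the local background was 43.4 and 61.2, so the order of the states depends on the scale. STAT3 was at 1.01 RPM in non-transformed and 3.23 in transformed cells (11 and 29 reads), a ratio of 3.21 (1.56 to 7.13). Its interval lay above 1, and its summit was 74 bp after the gene position in the first state and 18 bp before it in the second. FOS had 3.17 and 3.31 RPM, JUN 2.46 and 3.03, and JUNB 2.40 and 3.05. The AP-1 ratios were 1.04 (0.730 to 1.5), 1.23 (0.805 to 1.91) and 1.27 (0.753 to 2.21), so none was apart from 1 by counting error. A second site within 2000 bp, 650 to 839 bp after the position, had FOS at 0.543 and NFKB1 at 0.724 RPM, both in transformed cells and with no summit before.

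At CXCL1 the NFKB1 peak was weak and stood by itself. The site at chr4:74734971-74735035 held NFKB1 alone, at 1.65 RPM in non-transformed and 1.14 in transformed cells (8 and 11 reads), a ratio of 0.688 (0.252 to 1.97). The other proteins met at a separate site, chr4:74733635-74733899. FOS was there at 1.29 and 1.81 RPM in non-transformed and transformed cells, JUN at 0.820 and 1.41, JUNB at 1.53 and 0.889, and STAT3 at 0.549 and 1.34. NFKB1 had a summit there in transformed cells, at 1.03. No protein's ratio at this site was apart from 1 by its counting interval. JUN also had a summit of transformed cells 1568 bp after the CXCL1 position, at 0.488 RPM.

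The CXCL2 position was the place where NFKB1 was lowest in transformed relative to non-transformed cells. At chr4:74964967-74965750 the protein had 3.93 and 1.65 RPM in the respective states, a ratio of 0.421 (0.203 to 0.864), the smallest of NFKB1 in the window. Its highest summits lay 30 bp before and 43 bp after the gene position. The highest AP-1 and STAT3 summits of the same site were farther along, from 275 to 619 bp after the position, which is upstream for a gene read toward lower coordinates. FOS had 0.859 and 1.54 RPM, JUN 0.631 and 1.03, and STAT3 1.46 and 1.12, and JUNB had 1.21 in transformed cells only. JUN had 3 summits at this site in non-transformed and 2 in transformed cells. A pair of them gave the largest JUN ratio of the window, 2.33 (0.939 to 6.56). It set a weaker summit of 7 reads (0.442 RPM) against 19 reads. Another pair, of 10 and 8 reads in non-transformed and transformed cells, had a ratio of 0.687 (0.236 to 1.93). The highest JUN summits of the site, given above, lay 161 bp apart and had a ratio of 1.63 (0.722 to 3.93). The JUN ratio whose interval lay above 1, 2.29 (1.15 to 4.88), was 42.3 kb before CXCL2, at a site named after its values were seen. Across the 3 gene positions, NFKB1 was thus 11.8, 1.65 and 3.93 RPM in non-transformed cells and 11.3, 1.14 and 1.65 in transformed cells for CXCL8, CXCL1 and CXCL2. The CXCL1 and CXCL2 values of transformed cells rest on 11 and 16 reads, and the promoters share the run given above.

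**Figure D3:**
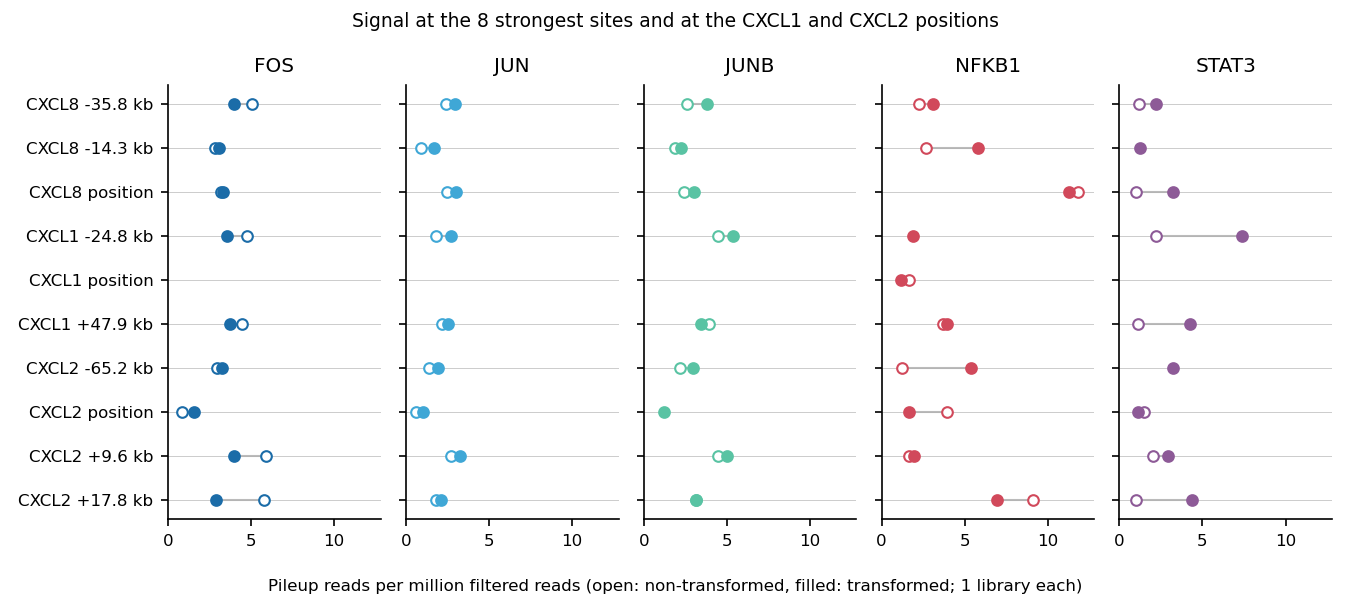
Pileup in RPM (x axis) of each protein at the sites nearest the gene positions and the 8 sites with the largest sums, with open symbols for non-transformed and filled symbols for transformed cells. NFKB1 at CXCL8 lies at 11.8 and 11.3, and STAT3 lies to the right in transformed cells at all 6 of the strongest sites where it was found in both. In the whole STAT3 list, summits of both states with a mean of at least 2 RPM had a median ratio of 2.28.

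Of the 8 sites with the largest sums, 7 lay more than 9 kb from the placed gene positions. STAT3 was higher in transformed cells at 6 of the 6 of these sites (CXCL8 included) where it had a summit in both states, with ratios of 1.44 to 4.32, and 4 of the 6 intervals lay above 1. JUN was above 1 at 8 of 8 sites, from 1.16 to 1.90, with no interval above 1. JUNB was above 1 at 7 of 8 (0.874 to 1.46, no interval above 1) and NFKB1 at 5 of 7 (0.761 to 4.33, 2 intervals above 1). These directions are in RPM. The exceptions of both proteins were higher in transformed cells by fold enrichment, which rises with depth. It was 23.2 and 24.4 for JUNB at the site 47.9 kb after CXCL1. For NFKB1 it was 43.4 and 61.2 at CXCL8, and 33.3 and 35.7 at the site 17.8 kb after CXCL2. FOS in RPM was above 1 at 3 of 8 (0.504 to 1.09), and 2 intervals lay below 1. Strong summits of the whole lists, those of both states with a mean of at least 2 RPM, had a median STAT3 ratio of 2.28. For the other proteins this median was 1.38 (JUN), 1.17 (NFKB1), 0.960 (JUNB) and 0.796 (FOS).

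At a pair of these sites the counting interval of the NFKB1 ratio lay above 1. At chr4:74899423-74899769, 65.2 kb before CXCL2, NFKB1 had 1.24 RPM in non-transformed and 5.38 in transformed cells (6 and 52 reads), the largest NFKB1 ratio of the window at 4.33 (1.86 to 12.3). STAT3 was found there in transformed cells only, at 3.23. FOS had 2.95 and 3.22, JUN 1.39 and 1.95, and JUNB 2.18 and 2.98. Between states the compared summits lay 219 bp apart for FOS and 238 bp for JUN, against 54 bp for JUNB and 36 bp for NFKB1. The other site lay 14.3 kb before CXCL8, and NFKB1 had 2.69 and 5.79 RPM there, a ratio of 2.15 (1.16 to 4.29). FOS was at 2.85 and 3.08, JUN at 0.883 and 1.68, and JUNB at 1.85 and 2.22, and STAT3 had 1.23 in transformed cells only.

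Among the 8 sites, the interval of the STAT3 ratio lay above 1 at 4, the CXCL8 position and 3 more. Elsewhere in the window it also lay above 1 at sites 4.17 kb before CXCL1 and 5.00 kb after CXCL2, described below. It did so too 54.4 kb before CXCL2, at 4.42 (1.97 to 11.2), a site named after its values were seen. At chr4:74710209-74710350, 24.8 kb before CXCL1, STAT3 had 2.20 RPM in non-transformed and 7.36 in transformed cells, a ratio of 3.35 (2.07 to 5.59). FOS was at 4.73 and 3.53 there, JUN at 1.83 and 2.71, and JUNB at 4.47 and 5.40, and NFKB1 had 1.86 in transformed cells only. At the site 47.9 kb after CXCL1, STAT3 had 1.10 and 4.24 RPM, a ratio of 3.86 (1.97 to 8.11). NFKB1 had 3.72 and 3.93 at that site, a ratio of 1.06, with FOS at 4.46 and 3.71, JUN at 2.14 and 2.55, and JUNB at 3.92 and 3.43.

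The site 17.8 kb after CXCL2, chr4:74982780-74982927, had opposite values for different proteins. STAT3 had 1.01 RPM in non-transformed and 4.35 in transformed cells, a ratio of 4.32 (2.17 to 9.35). FOS had 5.75 and 2.90, a ratio of 0.504 (0.364 to 0.694), and both intervals excluded 1 on their own side. The STAT3 summit was at 74982927 in non-transformed and 74982780 in transformed cells, 147 bp apart, whereas the FOS summits lay 4 bp apart. NFKB1 was high in both states, 9.10 and 6.93, a ratio of 0.761 (0.513 to 1.14), while its fold enrichment was 33.3 and 35.7. JUN had 1.83 and 2.11, and JUNB 3.16 and 3.17.

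FOS was also lower at the site 9.60 kb after CXCL2, with 5.91 and 3.99 RPM and a ratio of 0.675 (0.504 to 0.901). JUN had 2.71 and 3.25 there, JUNB 4.47 and 5.02, NFKB1 1.65 and 1.96, and STAT3 2.01 and 2.90. The last of the 8, chr4:74570371-74570456, lay 35.8 kb before CXCL8. FOS had 5.05 and 3.94, JUN 2.40 and 2.93, JUNB 2.61 and 3.81, NFKB1 2.27 and 3.10, and STAT3 1.19 and 2.23, with a STAT3 ratio of 1.88 (0.888 to 4.10).

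Of all 85 sites, 1 had all 5 proteins in transformed cells and at most 1 before (1.18%, background 1.40%). It lay 5.09 kb before CXCL8, at chr4:74601082-74601137, and no list of non-transformed cells had a summit in it. In transformed cells FOS had 1.36 RPM, JUN 0.650, JUNB 1.02, NFKB1 1.03 and STAT3 0.781, so all were weak beside the CXCL8 position itself.

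Most other extreme ratios lay away from the placed gene positions. FOS and JUNB both had their largest ratio at chr4:74579544-74579558, 26.7 kb before CXCL8. FOS had 0.591 and 3.12 RPM in non-transformed and transformed cells, a ratio of 5.29 (2.78 to 11.1), and JUNB had 0.763 and 2.22, a ratio of 2.91 (1.28 to 7.77). STAT3 was found there in transformed cells only, at 5.58, the highest of its gained summits, with JUN and NFKB1 at 1.03 each. STAT3 had its largest ratio 4.17 kb before CXCL1, 0.915 against 4.91 RPM or 5.36 (2.66 to 12.0), where FOS had 0.537 and 1.36. The smallest ratios were 0.440 for FOS (0.199 to 0.921), 0.620 for JUN (0.279 to 1.34), 0.486 for JUNB (0.188 to 1.23) and 0.750 for STAT3 (0.269 to 1.95). The JUN value was at a site 22.7 kb after CXCL1, where NFKB1 had 6.20 and 6.31 RPM, a ratio of 1.02 (0.647 to 1.63).

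A few strong sites fell outside the naming rule and were chosen after their values were seen. The highest STAT3 summit of the window in each state lay 5.00 kb after CXCL2, at chr4:74969998-74970010, with 3.29 and 8.03 RPM and a ratio of 2.44 (1.61 to 3.74). FOS was low there, at 0.806 and 0.906. NFKB1 had 6.20 and 6.00 RPM at a site 35.8 kb after CXCL8, a ratio of 0.967 (0.612 to 1.56), with STAT3 at 0.915 and 1.12. In transformed cells 14 sites had at least 2 RPM of NFKB1 (16.5%, background 3.85%) and 20 had as much of STAT3 (23.5%, background 9.39%). Both reached it at 7 sites (8.24%, background 2.23%), which is 7 of the 14 of NFKB1 (background 57.9%).

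All 5 proteins had summits in the cluster that were listed in transformed cells alone, and each had fewer that were listed in non-transformed cells alone. A summit was called gained, or lost, when no window of the same protein overlapped it in the other state. NFKB1 gained 37 of its 52 summits of transformed cells (71.2%, background 83.8% of its whole list) and lost 0 of 15 (background 10.7%). Of the 37, only 22 had at least 1.03 RPM, the lowest value of an NFKB1 summit of the window in non-transformed cells. STAT3 gained 22 of 44 (50%, background 61.6%) and lost 2 of 22 (9.09%, background 29.1%). JUN gained 26 of 55 (47.3%, background 49.3%) and lost 2 of 29 (6.90%, background 21.0%). FOS gained 21 of 61 (34.4%, background 39.3%) and lost 4 of 44 (9.09%, background 17.0%). JUNB gained 20 of 43 (46.5%, background 44.8%) and lost 8 of 31 (25.8%, background 25.6%). The gained summits that reached the lowest RPM of the same protein in non-transformed cells were 22 of 22 for STAT3 and 24 of 26 for JUN. They were 17 of 21 for FOS and 16 of 20 for JUNB. The shares in background were taken with the same rule over all peaks of a list.

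Gained summits were the weaker ones. Their median was 1.03 RPM for NFKB1, against 3.10 at NFKB1 summits of both states, and 1.51 against 2.40 for STAT3. FOS had 0.589 against 1.86, JUN 0.623 against 1.08, and JUNB 0.984 against 1.97. At least 2 RPM were reached by 8 of the 22 gained summits of STAT3 (36.4%, background 14.9% of all gained STAT3 summits) and 5 of the 37 of NFKB1 (13.5%, background 5.59%). For JUNB it was 1 of 20 (5.00%, background 1.83%), and for FOS and JUN it was 0 (background 0.634% and 0.336%). STAT3 was found in transformed cells only at 20 sites (23.5%, background 19.0%). Of these, 12 had an AP-1 protein in non-transformed cells (60.0%, background 62.7%). For the 34 NFKB1 sites of transformed cells only, 21 had AP-1 before (61.8%, background 73.6%), and 9 had STAT3 in transformed cells only as well (26.5%, background 31.2%). Loss or absence here means that no peak passed the authors' threshold, which in the NFKB1 library of non-transformed cells was set on the fewest reads.

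At summits found in both states, STAT3 had the highest ratio of transformed to non-transformed cells in RPM, an order that depended on the scale. By the deposited fold enrichment over local background the median ratio was 1.44 for NFKB1, 1.36 for STAT3, 1.29 for JUN, 1.29 for JUNB and 1.04 for FOS. In RPM the STAT3 median over 22 summits was 1.61 (95% order-statistic interval 1.22 to 3.21), and 18 were above 1. All STAT3 summits found in both states had a median of 1.68 over the whole list. The intervals on medians describe the spread over summits of a single pair of libraries, not over replicates. The non-transformed STAT3 summits at 74642316 and 74974879, and those of JUN at 74922685 and 74961725, were each paired with more than 1 transformed summit. A ratio of at least 1.5 was found at 13 of 22 (59.1%, background 57.3%) and the inverse at 0 (background 4.81%).

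NFKB1 had a median ratio in RPM of 1.02 at its 15 shared summits (0.761 to 1.30, list 1.00). Of these, 2 reached a ratio of 1.5 (13.3%, background 23.2%) and 2 the inverse (13.3%, background 19.7%). JUN had a median of 1.23 (0.954 to 1.48, list 1.29) over 29 summits, with 8 at 1.5 or more (27.6%, background 35.8%) and 1 at the inverse (3.45%, background 5.37%). JUNB had 1.08 (0.874 to 1.27, list 0.957) over 23, with 3 up (13.0%, background 18.5%) and 3 down (13.0%, background 21.5%).

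FOS had values on both sides of 1. Its median over 40 summits was 1.09 (0.843 to 1.43, list 0.937), with 13 at 1.5 or more (32.5%, background 18.3%) and 3 at the inverse (7.50%, background 21.1%). The ratio differed with the level of the signal. The 12 summits with a mean of at least 2 RPM had a median of 0.758 (list 0.796), with 3 above 1. The 28 weaker ones had 1.42 (list 1.01), with 20 above 1. No test of these differences from the list was made.

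**Figure D4:**
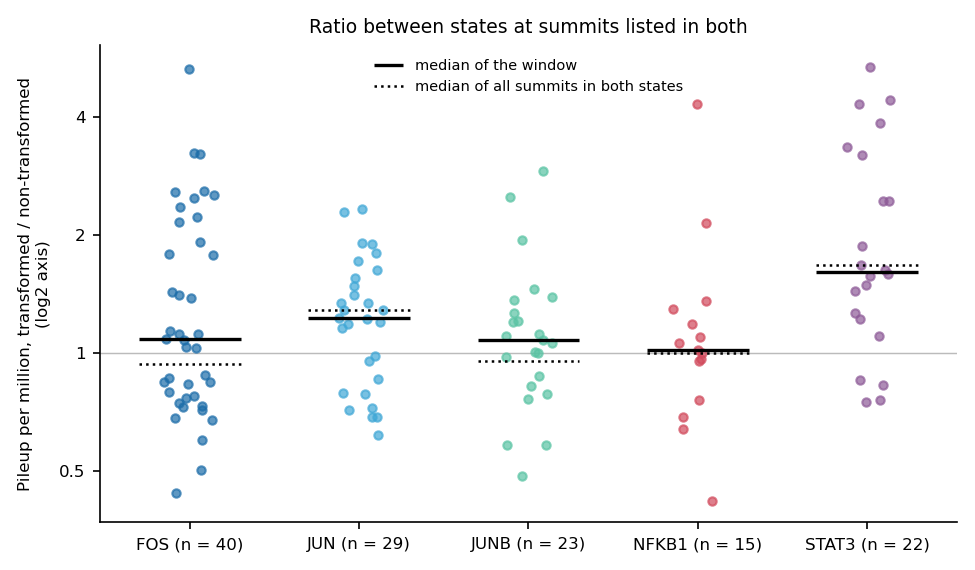
Ratio of transformed to non-transformed pileup in RPM (y axis, log scale) at each summit of the window found in both states, for the 5 proteins, with the median of the window and of the whole list. In RPM, STAT3 has the highest window median (1.61) and NFKB1 the lowest (1.02), and FOS, JUN and JUNB lie at 1.09, 1.23 and 1.08. By fold enrichment, which rises with depth, NFKB1 is highest (1.44).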

How the data were processed

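ChIP-seq of 5 proteins in 2 states was analysed from 10 deposited peak lists, grouped by the sample titles. Members, lists and tests were chosen with earlier results of these data known. Per the file headers, the authors ran MACS on every library by itself, version 2.0.10.20131216, without a control, from reads of 36 bp with at most 1 read per position, a q-value threshold of 0.05, an effective genome of 2700000000 bp and a local background of 1000000 bp. Bowtie and hg19 are named in the submitters' processing notes. The deposited pileup is the signal, the coverage by reads extended to 114 to 150 bp, and was not scaled by depth. The deposited p-values and q-values are on a −log10 scale. Fold enrichment, also deposited, sets pileup against local background. Its values fit a ratio in which 1 read is added to both. It therefore rises with depth wherever pileup exceeds background, unlike a plain ratio.

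Pileup was divided by filtered reads and multiplied by 1000000. Windows of 150 bp on each side of summits were compared with an overlap of at least 1 bp. Ratios have exact conditional binomial 95% intervals, which cover counting error only, and medians have order-statistic intervals over summits. With 1 library per protein and state there was no test and no p-value. The sites named were those within 2000 bp of a placed gene position, the 8 with the largest sum over lists, those with all 5 proteins in transformed cells and at most 1 before, and the extreme ratio of each protein in each direction. At hand was a GRCh38 genome, so no coordinates were converted and no sequence was read under a peak. Promoters, gene order and strand are from RefSeq (GRCh38.p14), and 6 of 6 members matched. Alternatives were a stricter q-value, whole peaks, windows of 50 bp, merging within 150 bp, a pileup minimum, fold enrichment and scaling by the genome-wide median. The code was tested on simulated data. Python 3.11.15, numpy 2.4.6, pandas 2.3.3, scipy 1.17.1 and matplotlib 3.10.9 were used.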

Additional observations from a re-analysis of the deposited data

How the results depend on the processing

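Of 102 values recomputed under alternatives, 62 stayed within the limits set for each, 39 moved and 1 that was past 1.5-fold changed direction. Only summits of at least 2 pileup reads per 1000000 filtered reads (RPM) left 13 and 18 summits of FOS in non-transformed and transformed cells, 4 and 6 of JUN, 9 and 12 of JUNB, 9 and 14 of NFKB1, and 5 and 20 of STAT3. STAT3 then gained 8 summits, NFKB1 5, JUNB 1 and FOS and JUN 0 each, and 0 were lost for FOS, JUN, JUNB and STAT3. Under a stricter threshold (−log10 q of at least 9.41), JUN had 14 and 28 summits, NFKB1 8 and 21, STAT3 9 and 28, and JUNB 18 in non-transformed cells. Gained were 16 for JUN and 13 for NFKB1, and lost were 2 for FOS, 4 for JUNB and 1 for STAT3. The sites fell to 56, with 9 holding all 5 proteins in transformed and 1 in non-transformed cells, since fewer peaks enter. With windows of 50 bp, 6 JUN and 5 STAT3 summits were lost. Fold enrichment in place of pileup gave median ratios of 1.29 for JUNB and 1.44 for NFKB1, and 1.36 for STAT3. Divided by the median over the whole list, the STAT3 ratio was 0.960 in place of 1.61, and the JUN ratio 0.957 in place of 1.23, both being relative to the list by construction. In variants chosen after seeing the data, sites without the NFKB1 libraries held all 4 remaining proteins in non-transformed cells at 10 places, and dividing by the extension length kept the direction of all 5 ratios and gave 2.03 for STAT3. The other causes were not tested. Whole peaks and merging within 150 bp moved none of the values. No paired analysis was possible because each protein and state has 1 library, which also left no replicate to leave out.

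The lowest pileup in the window was 5 reads in both NFKB1 lists, and counting error is wide at such values.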
